A study of Mus musculus with 6 samples.

Results

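The integrated stress response and the unfolded protein response were followed through 35 genes in bone marrow erythroblasts that lacked the miR-144/451 locus. The genes are the kinases that phosphorylate eIF2α, the factors and targets downstream of them, and the sensors, chaperones and degradation genes of the endoplasmic reticulum. They were taken by symbol from the platform's gene annotation, each by the probe set with the highest mean signal, and all 35 were measured, of 18193 genes on the array. Of the 6 mice, 3 were miR-144/451 knockout (KO 493, KO 548 and KO 551) and 3 were wild type (WT 497, WT 504 and WT 550), named here by the numbers in the sample titles. Each gave 1 Affymetrix Mouse Genome 430 2.0 array of total RNA from freshly isolated marrow cells that were sorted as Ter119+, CD71+ and high in forward scatter, which selects large erythroid precursors. The mice carried no other treatment per the labels, and strain, age and litter are not given in the sources used here. How the allele was made, and whether it removes anything besides the microRNAs, are not given there either.

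The deleted locus lies on mouse chromosome 11. Its 2 main mature products are shown with the seed (bases 2 to 8) in capitals, from RefSeq on GRCm38.p6: miR-144-3p at chr11:78073047-78073066 and miR-451a at chr11:78073186-78073207, both on the plus strand. The microRNAs were not measured on these arrays, so the genotypes rest on the labels.
miR-144-3p: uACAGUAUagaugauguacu
miR-451a: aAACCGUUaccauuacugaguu

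Both responses match protein synthesis to the state of the cell. In the integrated stress response, kinases sensing haem shortage, viral RNA, misfolded proteins or missing amino acids phosphorylate eIF2α, which slows translation in general while raising that of the transcription factor ATF4. In erythroblasts the haem-regulated kinase HRI, encoded by Eif2ak1, couples globin synthesis to the haem supply. In the unfolded protein response the sensors PERK (Eif2ak3), IRE1 (Ern1) and ATF6 raise chaperones and degradation genes of the endoplasmic reticulum. Much of this signalling runs through phosphorylation, splicing and translation, which these arrays do not measure.

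The cells carried the erythroid markers of the sort. The 9 measured erythroid marker genes had mean log2 intensities of 11.17 (Rhag) to 13.07 (Slc4a1). Of them 0 had an unadjusted p under 0.05 (limma), against 21.0% of all genes. Their summed linear intensity was 50714 to 52055 in KO and 52859 to 55678 in WT. Markers of other blood cells also gave signal, and most of their summed intensities were lower on the KO arrays. The summed linear intensity was 3452 to 4896 in KO and 5236 to 9224 in WT for 11 B lineage and plasma cell genes. It was 37109 to 41804 in KO and 43661 to 46480 in WT for 8 neutrophil genes, and 7731 to 8677 in KO and 9455 to 11546 in WT for 9 macrophage genes. For 8 progenitor genes it was 3974 to 4117 in KO and 4977 to 5490 in WT, and for 5 T and NK genes 803 to 1083 in KO and 1422 to 2140 in WT. Of these sums only that of the 5 megakaryocyte and platelet genes overlapped between genotypes, at 5356 to 6534 in KO and 5530 to 5942 in WT. The dimmest genes of these lists were Cd3g and Tnfrsf17, at mean log2 intensities of 4.56 and 4.91. Most of the progenitor sum came from Myb, the brightest of its list at a mean log2 intensity of 11.83, and all 8 progenitor genes were lower in KO by sign. The actin 3′ minus 5′ signal, a measure of RNA integrity and labelling, was 1.82 to 1.86 in KO and 1.65 to 1.67 in WT (log2), and that of Gapdh was 1.0 to 1.05 in KO and 1.03 to 1.09 in WT.

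Compared with wild type, none of the 35 genes passed the test in KO erythroblasts. At an adjusted p under 0.05 (limma, Benjamini-Hochberg over all 45037 probe sets) 0 were called, against 0.385% of all genes, and the lowest adjusted p was 0.153, for Cebpb. With an intensity trend and a robust prior 0 members were called again, against 4.42% of all genes, and with dim probe sets left out 0 of 31, against 5.62%. An unadjusted p under 0.05 was found for 8 members (2 higher and 6 lower in KO), which is 22.9% of them, against 21.0% of all genes (8.34% higher and 12.7% lower). This share is near that of genes in general. Their median difference was -0.10 (log2 intensity, KO minus WT), beside -0.04 over all genes, and 25 of 35 were lower by sign, against 56.0% of all genes. Groups did not overlap for 2 members with all KO mice above all WT mice, where 12.5% of all genes did so. They did not overlap for 8 with all KO mice below, where the share of all genes was 16.2%. The count of 8 members with an unadjusted p under 0.05 became 5 without KO 493, 5 without KO 551, 2 without WT 497 and 4 without WT 550. The share of all genes fell as well, to 16.4%, 15.6%, 15.3% and 16.6% in these fits. Without WT 504 the count was 7 (20%, against 21.3% of all genes). Without KO 548 it was 8 (22.9%, against 15.5%), but of the first 8 only Cebpb, Vldlr and Mthfd2 were among them.

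The 95% intervals show what sizes these arrays could still allow. For 30 of 35 members the interval lay within a 2-fold change either way, against 87.5% of all genes, and for 20 it lay within 1.5-fold, against 56.8%. The 5 members whose interval reached beyond 2-fold were Eif2ak1, Nupr1, Trib3, Chac1 and Vldlr. The gene groups differed in how tight these limits were. All 9 chaperones, both degradation genes, all 6 amino acid and one-carbon genes and all 3 sensors lay within 2-fold. So did 3 of 4 kinases and 4 of 5 transcription factors, but only 3 of 6 feedback and effector genes.

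**Figure D1:**
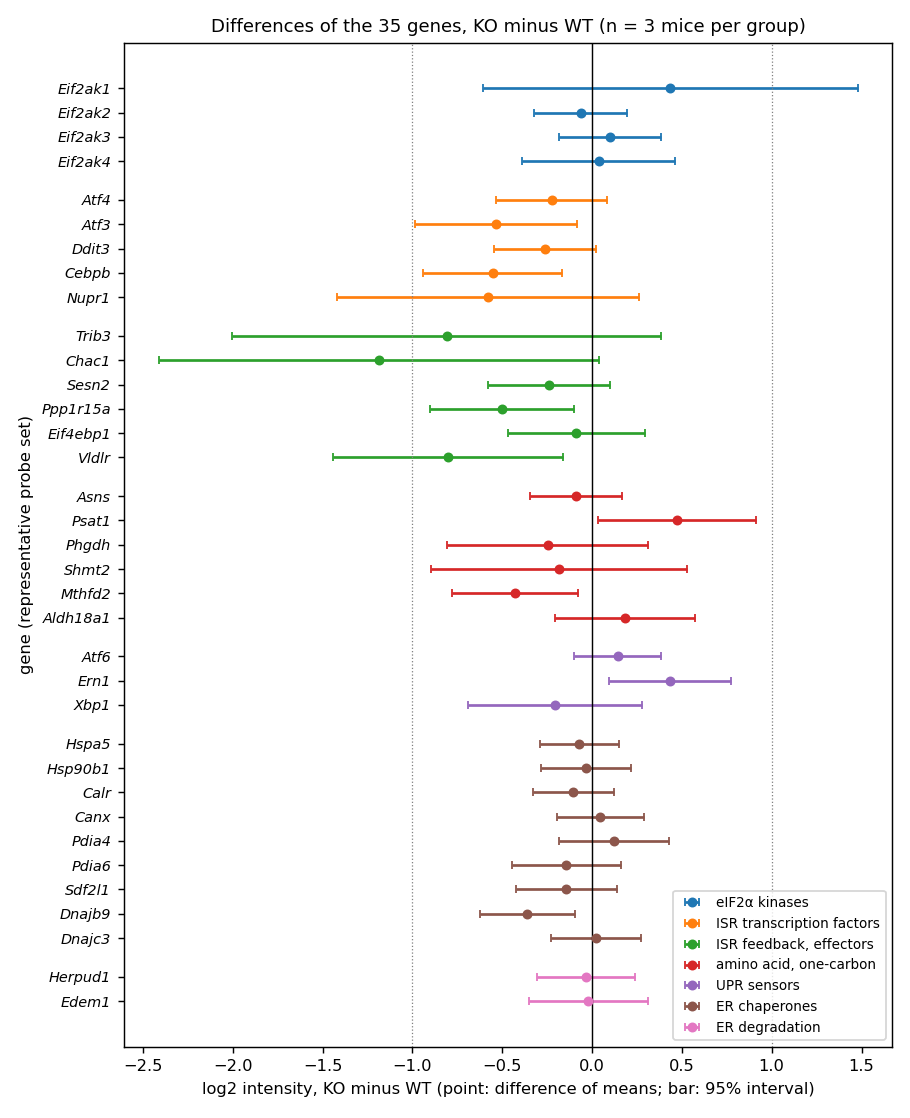
Differences in log2 intensity, KO minus WT, of the 35 genes, grouped and coloured by role. Points are differences of group means (n = 3 mice each), bars are limma's 95% intervals, and dotted lines mark a 2-fold change; all 11 genes of the transcription factor and the feedback groups lie left of 0, and the chaperones lie close to it with short bars.

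The kinases that start the response had differences of -0.06 to 0.44, with 0 of 4 at an unadjusted p under 0.05, against 21.0% of all genes. Eif2ak1 (HRI) was very bright in erythroblasts, and its representative probe set gave log2 intensities of 13.61, 11.96 and 11.91 in KO 493, 548 and 551, against 12.09, 11.98 and 12.10 in WT 497, 504 and 550. A single mouse, KO 493, stood 1.51 above every other array, and the other KO mice lay just under the WT mice. The difference was 0.44 ± 0.44 (SE, n = 3 per group, 95% interval -0.60 to 1.48, adjusted p = 0.621), and it turned to -0.12 ± 0.12 without KO 493 (adjusted p = 0.645). A gap of at least 1 above all other arrays occurred in KO 493 for 11 of 18193 genes, and Eif2ak1 was the 1 member among them.

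The other 4 probe sets of Eif2ak1 did not share that value. On 1421900_at the log2 intensities were 11.09, 10.91 and 11.0 in KO, against 11.39, 11.11 and 11.37 in WT, with no overlap of the groups and a difference of -0.29 ± 0.12 (unadjusted p = 0.0484, adjusted p = 0.249). On 1430696_at they were 8.02, 7.67 and 7.99 in KO, against 8.16, 8.21 and 8.70 in WT (-0.46 ± 0.18, adjusted p = 0.229). The remaining pair, 1436006_at and 1453902_at, differed by -0.25 each (adjusted p = 0.365 and 0.352). So 4 of 5 probe sets of the HRI gene were lower in KO, none past the threshold, and the direction of the brightest rests on KO 493. The mean of all 5 differed by -0.16 (adjusted p = 0.586).

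**Figure D2:**
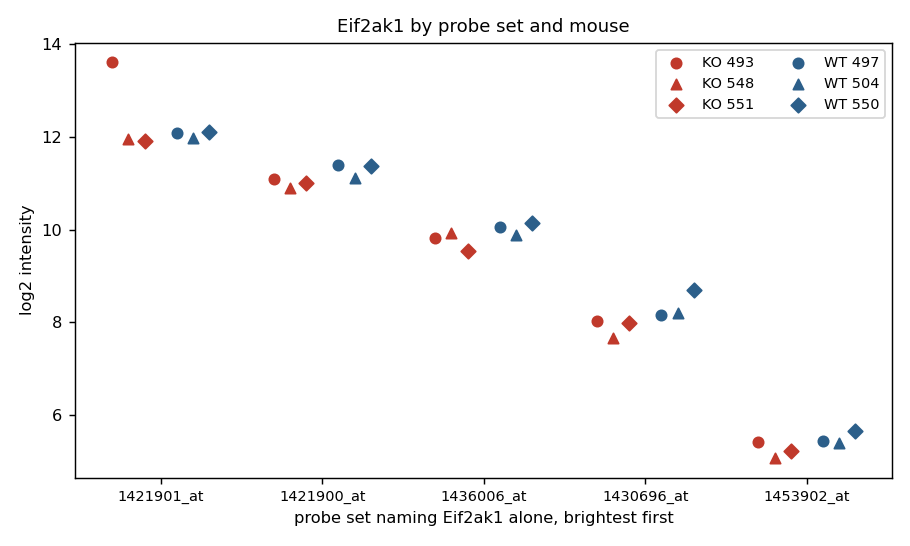
Log2 intensity of the 5 probe sets that name Eif2ak1 alone, by mouse, with KO mice left of WT mice within each probe set. KO 493 stands at 13.61 on 1421901_at, while on the other probe sets it lies at or near the level of the other mice.

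Eif2ak2 (PKR), which senses double-stranded RNA, had 9.73, 9.51 and 9.58 in KO, against 9.58, 9.70 and 9.73 in WT (-0.06 ± 0.11). Eif2ak3 (PERK), the sensor of the endoplasmic reticulum, had 8.61, 8.55 and 8.66 in KO, against 8.69, 8.38 and 8.45 in WT (0.10 ± 0.12). Eif2ak4 (GCN2), which senses uncharged tRNA, had 7.58, 8.14 and 7.83 in KO, against 7.58, 7.87 and 7.99 in WT (0.04 ± 0.18). For all 3 the groups overlapped and the mice of 1 genotype spread as widely as the genotypes differed. The mean over the probe sets of Eif2ak3 had the opposite sign (-0.13), and that of Eif2ak4 too (-0.03).

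The 5 transcription factors of the response were all lower by sign in KO, against 56.0% of all genes, with 0 called and a median difference of -0.53. An unadjusted p under 0.05 was found for 2 of the 5 (40%), against 21.0% of all genes. Cebpb, a leucine-zipper factor that pairs with ATF4 and is also used by myeloid cells, had log2 intensities of 6.90, 7.22 and 6.99 in KO, against 7.53, 7.37 and 7.87 in WT. Every KO mouse lay below every WT mouse, and the difference of -0.55 ± 0.16 (adjusted p = 0.153) had an unadjusted p under 0.05 whichever mouse was left out. Its second probe set was at -0.23. Atf3, a stress-induced repressor, was dim at 4.84, 4.58 and 4.88 in KO, against 5.68, 5.20 and 5.02 in WT (-0.53 ± 0.19, adjusted p = 0.201), and again the groups did not overlap. The B lineage, neutrophil, macrophage, progenitor and T and NK marker sums given above were lower in KO on the same arrays. So was the erythroid sum, at 50714 to 52055 in KO and 52859 to 55678 in WT. The part of any of these cell types in the differences of Cebpb and Atf3 was not tested. In bulk RNA, fewer cells of a type and less RNA per cell cannot be told apart.

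Atf4, the factor at the centre of the response, had 11.98, 12.18 and 11.79 in KO, against 12.27, 12.23 and 12.12 in WT. On this probe set the groups overlapped through KO 548, and the difference was -0.22 ± 0.13 (95% interval -0.53 to 0.09, adjusted p = 0.385). On 1438992_x_at all KO mice lay below the WT mice (-0.21 ± 0.11, adjusted p = 0.337), and the dim 1439258_at was at -0.11 with overlap. Ddit3 (CHOP), the proapoptotic factor induced by ATF4, had 10.10, 10.07 and 9.89 in KO, against 10.23, 10.43 and 10.18 in WT. All KO values were lower, by -0.26 ± 0.12 (adjusted p = 0.285), and its second probe set differed by -0.37 (adjusted p = 0.252) with overlapping groups. Nupr1, a small stress-induced chromatin protein, ranged from 7.37 to 7.64 in KO and from 7.27 to 8.78 in WT, so that the WT mice alone covered the whole KO range (-0.58 ± 0.35, adjusted p = 0.405).

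**Figure D3:**
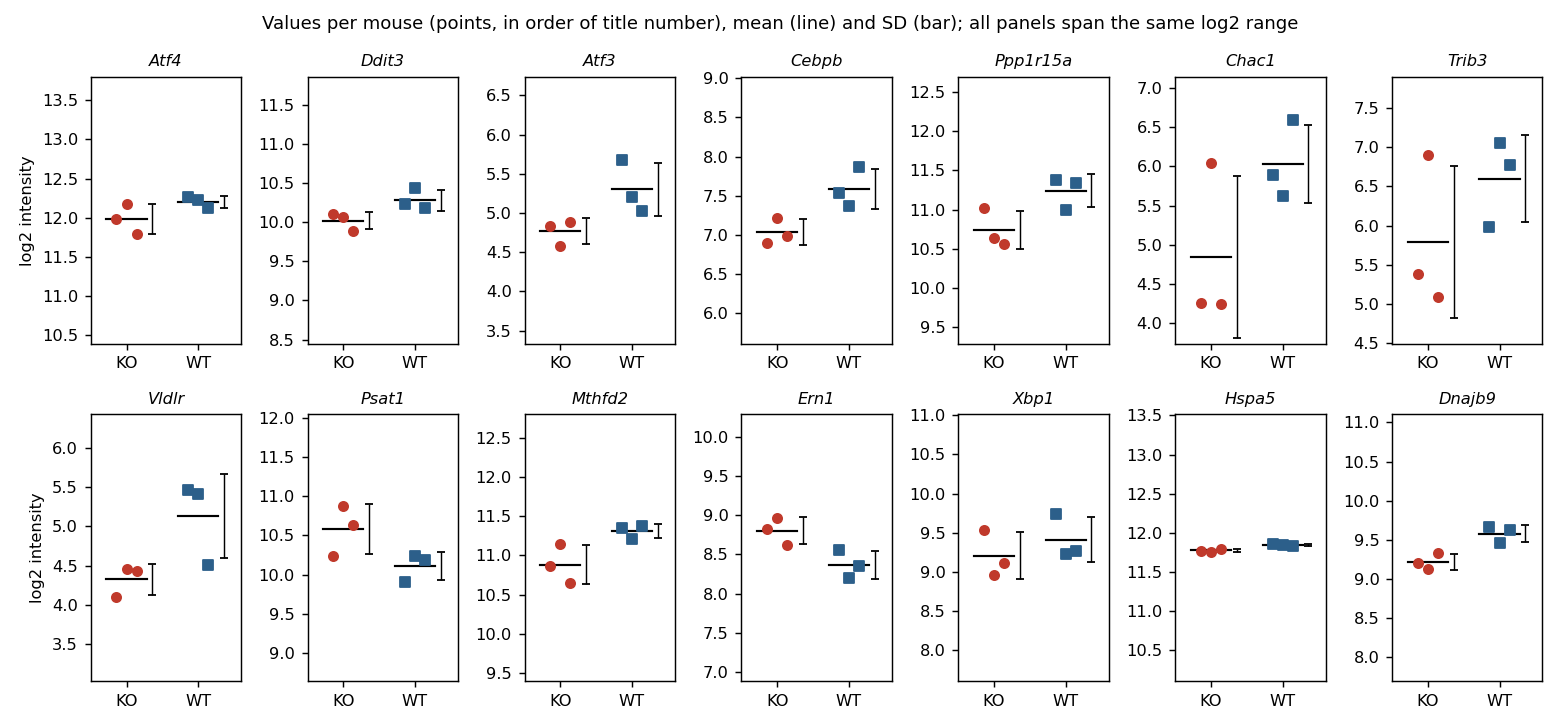
Log2 intensity per mouse of 14 members on their representative probe sets, KO left of WT, with points in order of title number, the mean as a line and the SD as a bar (n = 3 mice). Cebpb, Dnajb9 and Mthfd2 show KO mice below all WT mice, Ern1 shows them above, and Chac1 and Trib3 have 1 KO mouse, KO 548, among the WT values.

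The 6 feedback and effector genes were lower by sign too, against 56.0% of all genes, with 0 called and a median difference of -0.65. An unadjusted p under 0.05 was found for 2 of the 6 (33.3%), against 21.0% of all genes. Ppp1r15a (GADD34), which brings a phosphatase to eIF2α and so ends the response, had 11.02, 10.64 and 10.56 in KO, against 11.38, 11.0 and 11.34 in WT. The groups touched only in KO 493 and WT 504, and the difference was -0.50 ± 0.17 (1.41-fold lower in KO, adjusted p = 0.187). Vldlr, a lipoprotein receptor that ATF4 can induce, had 4.10, 4.45 and 4.43 in KO, against 5.47, 5.41 and 4.51 in WT (-0.80 ± 0.27, adjusted p = 0.185). These are signals near the bottom of the scale, where the 25th percentile of all values was 4.34, and of its 5 other probe sets, 1451156_s_at differed by -0.68 ± 0.24 (adjusted p = 0.205) and the other 4 by -0.09 to 0.04.

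The widest spread between mice lay in Chac1 and Trib3, which were chosen for description after their values were seen. Chac1, a glutathione-degrading enzyme induced by ATF4, had 4.26, 6.04 and 4.24 in KO 493, 548 and 551, against 5.89, 5.62 and 6.59 in WT. KO 493 and KO 551 sat near the bottom of the scale, and KO 548 sat within the WT range. The difference of -1.19 ± 0.52 was the widest of the members (95% interval -2.41 to 0.04, adjusted p = 0.264). Trib3, a pseudokinase that restrains ATF4, had the same order in KO with 5.38, 6.90 and 5.09, against 5.98, 7.05 and 6.77 in WT (-0.81 ± 0.50, adjusted p = 0.414). The dimmer probe set of Trib3, 1426065_a_at, was at -0.30 ± 0.32 (adjusted p = 0.643). The within-group SD was 0.81 for Chac1 and 0.79 for Trib3, and 99.2% and 99.1% of all genes had an SD no larger. Sesn2, a stress-induced regulator of mTORC1, again had KO 548 apart, with 7.68, 8.09 and 7.64 in KO, against 8.02, 8.05 and 8.06 in WT (-0.24 ± 0.14). Eif4ebp1, the translational repressor 4E-BP1, had overlapping groups (-0.09 ± 0.16).

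KO 548 was the highest KO mouse in 12 of the 17 genes on the ATF4 side (transcription factors, feedback and effector genes, amino acid and one-carbon genes), which is 70.6%, against 35.2% of all genes. In the 14 sensors, chaperones and degradation genes of the endoplasmic reticulum it was the highest in 6 (42.9%). The same order was counted in genes that are not members: KO 548 was the highest KO mouse for 17 of 19 cytoplasmic aminoacyl-tRNA synthetases (89.5%) and for 14 of 27 other ATF4-linked genes (51.9%). The shares in the remaining lists lay nearer to that of all genes or below it. They were 3 of 8 eIF2 and eIF2B genes (37.5%), 8 of 23 folding genes (34.8%), 10 of 22 degradation genes (45.5%) and 6 of 26 translocation and sensing genes (23.1%). Single WT mice also led some lists, WT 550 in 15 of the 27 other ATF4-linked genes (55.6%, against 36.5% of all genes) and WT 504 in 7 of 8 eIF2 and eIF2B genes (87.5%, against 27.2%). These counts were made after the order had been seen in Chac1 and Trib3, carry no test, and treat 1 mouse. Without KO 548, Chac1 differed by -1.78 and Trib3 by -1.37, with adjusted p of 0.164 and 0.219 (limma), and 0 members were called. Because KO 548 was the highest KO mouse in both genes, leaving it out had to widen both differences. Chac1 was at -0.89 without KO 493 and -0.88 without KO 551, and Trib3 at -0.60 and -0.46.

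**Figure D4:**
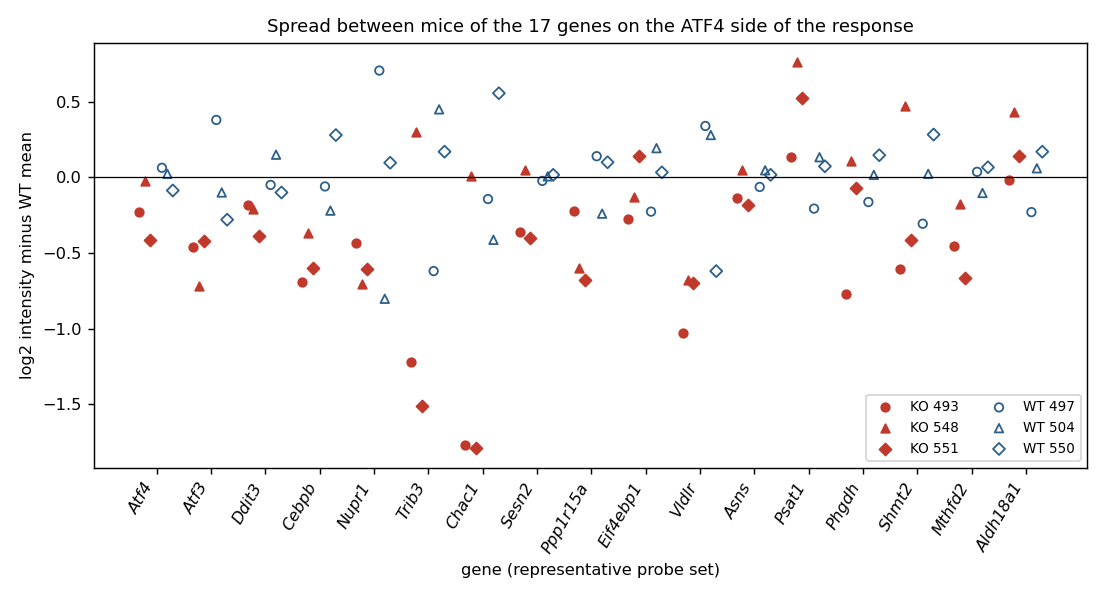
Log2 intensity minus the WT mean for the 17 genes on the ATF4 side, by mouse, with filled symbols for KO and open symbols for WT, KO left of WT within each gene. KO 548 (filled triangles) lies above the other KO mice in 12 genes, with the widest gaps in Trib3, Chac1 and Shmt2.

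The 6 genes for amino acid and folate-linked carbon metabolism went both ways, with 0 called and a median difference of -0.14. At an unadjusted p under 0.05 there were 1 higher and 1 lower (33.3%, against 21.0% of all genes). Mthfd2, a mitochondrial folate enzyme, had 10.86, 11.14 and 10.65 in KO, against 11.35, 11.21 and 11.38 in WT (-0.43 ± 0.15, adjusted p = 0.19), with all KO mice below the WT mice. Its second probe set repeated this at -0.44 ± 0.16 without overlap. Psat1, an enzyme of serine synthesis, went the other way with 10.24, 10.87 and 10.63 in KO, against 9.90, 10.24 and 10.18 in WT (0.47 ± 0.19, adjusted p = 0.229), and KO 493 was level with WT 504. Its second probe set differed by 0.46. The other serine and glycine genes overlapped between groups: Phgdh, the first enzyme of serine synthesis, was at -0.25 ± 0.23, and Shmt2, which makes glycine in mitochondria, at -0.18 ± 0.30. Without KO 493, the lowest KO mouse, Phgdh was at 0.02. Shmt2 moved with several mice, to 0.03 without KO 493, -0.04 without WT 550, -0.07 without KO 551 and -0.51 without KO 548. Asns, asparagine synthetase and a standard readout of ATF4, was very bright and even, at 12.36, 12.54 and 12.31 in KO, against 12.43, 12.54 and 12.51 in WT (-0.09 ± 0.11, 95% interval -0.35 to 0.17). Aldh18a1, of proline synthesis, was at 0.18 ± 0.16, and its 4 other probe sets at 0.11 to 0.20.

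Sequence before the start sites was read for the 33 members with a RefSeq promoter on GRCm38.p6, over the 250 bases before each start, on both strands. The C/EBP-ATF response element, to which ATF4 binds with C/EBP partners, was searched as TGATGNAA. It was found for 6 members (Atf3, Nupr1, Chac1, Vldlr, Asns and Herpud1), in 6 of the 36 windows of the members, while 3.45% of all 32851 such windows held it. Many members were listed as factors or targets of the ATF4 response, so this element is not independent of their choice. The windows below show it in capitals, in the gene's own direction, for an even gene (Asns, chr6:7693210-7693289, minus strand), the most variable gene (Chac1, chr2:119351024-119351103, plus strand) and a factor lower in KO by sign (Atf3, chr1:191183389-191183468, minus strand). In Asns the element begins 23 bases before the start and reads forward, and in Chac1 and Atf3 it begins 193 and 110 bases before the start and reads on the opposite strand. At the free position N, read along the element, Chac1 and Atf3 both have C and Asns has A. Nupr1, Vldlr and Herpud1, not shown, have C as well, and Herpud1 was as even between genotypes as Asns (-0.03 ± 0.11). A match of letters is a description, not a bound site.
Asns: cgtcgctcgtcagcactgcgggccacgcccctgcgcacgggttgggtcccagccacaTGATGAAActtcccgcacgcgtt
Chac1: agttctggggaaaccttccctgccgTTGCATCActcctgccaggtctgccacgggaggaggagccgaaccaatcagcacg
Atf3: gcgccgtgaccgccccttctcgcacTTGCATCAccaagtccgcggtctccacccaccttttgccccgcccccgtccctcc

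Of the 3 sensors and effectors of the unfolded protein response, 0 were called and the median difference was 0.14. An unadjusted p under 0.05 was found for 1 of the 3 (33.3%), against 21.0% of all genes. Ern1 (IRE1α), the kinase and RNase that splices Xbp1, had 8.82, 8.97 and 8.62 in KO, against 8.56, 8.20 and 8.35 in WT. All KO mice lay above the WT mice, by 0.43 ± 0.14 (1.35-fold, adjusted p = 0.182). Its 4 dimmer probe sets disagreed. On 1421240_at the sign was the same (0.27 ± 0.13, adjusted p = 0.319), while 1438583_at and 1431886_at were at -0.06 and -0.20 with overlapping groups. On 1450176_at the values were 4.19, 4.30 and 4.49 in KO, against 5.0, 4.63 and 4.98 in WT, without overlap in the opposite direction (-0.54 ± 0.15, adjusted p = 0.136), and the mean of all 5 was at -0.02. The arrays therefore give no single direction for Ern1. Xbp1, whose spliced form is the main factor of the IRE1 branch, had 9.54, 8.96 and 9.12 in KO, against 9.74, 9.23 and 9.27 in WT (-0.21 ± 0.20, adjusted p = 0.615), and its 3 other probe sets were at -0.10 to -0.13. Splicing of Xbp1 was not analysed here. Atf6, the sensor that becomes a transcription factor after cleavage, had 8.37, 8.55 and 8.38 in KO, against 8.29, 8.27 and 8.31 in WT (0.14 ± 0.10, adjusted p = 0.475), with all KO mice above the WT mice. Ern1, Xbp1 and the chaperone gene Canx lie on chromosome 11, which carries the deleted locus, and the part of that in their values was not tested.

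The chaperones of the endoplasmic reticulum varied least between mice of 1 genotype, with 0 of 9 called and a median difference of -0.07. Of these 9, 1 had an unadjusted p under 0.05 (11.1%, against 21.0% of all genes). Their median within-group SD was 0.09, beside 0.17 over all genes. Hspa5 (BiP), the chaperone that holds the sensors inactive and the standard readout of the unfolded protein response, had log2 intensities of 11.77, 11.76 and 11.80 in KO, against 11.86, 11.85 and 11.83 in WT. All KO mice lay below the WT mice, but by only -0.07 ± 0.09 (1.05-fold lower in KO, 95% interval -0.29 to 0.15, adjusted p = 0.716), and its SD was among the lowest 0.22% of genes. The shared variance in limma makes that standard error larger than the spread of these 6 values. Its other bright probe set was at -0.09 and the dim one at -0.18.

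Calr (calreticulin), a lectin chaperone, had 11.94, 12.01 and 11.99 in KO, against 12.04, 12.14 and 12.07 in WT (-0.10 ± 0.10, adjusted p = 0.587). All KO mice lay below the WT mice. They did so too on 1417606_a_at, at -0.31 ± 0.14 (adjusted p = 0.287), while 1433806_x_at was at -0.11 with overlap. Canx (calnexin), its membrane-bound relative, was at 0.05 ± 0.10 with overlapping groups. Its other probe sets, 1422845_at and 1428935_at, were at -0.13 and 0.29, also with overlap. Hsp90b1 (GRP94) was at -0.03 ± 0.11, with 9.94, 9.92 and 9.90 in KO, against 9.98, 10.06 and 9.82 in WT. The disulfide isomerases Pdia4 and Pdia6 were at 0.12 ± 0.13 and -0.14 ± 0.13, Sdf2l1, a cofactor of BiP, at -0.14 ± 0.12, and Dnajc3 (P58IPK), a co-chaperone that inhibits eIF2α kinases, at 0.02 ± 0.11. On these probe sets none of the 4 separated the genotypes, but the second, dimmer probe set of Pdia6 did so in the opposite direction, with 4.96, 5.05 and 4.93 in KO, against 4.75, 4.67 and 4.55 in WT (0.32 ± 0.10, adjusted p = 0.177). Dnajb9 (ERdj4), a co-chaperone of BiP and target of XBP1, had the largest difference of the chaperones on representative probe sets. It had 9.20, 9.13 and 9.33 in KO, against 9.66, 9.46 and 9.62 in WT, with all KO mice below the WT mice, and a difference of -0.36 ± 0.11 (1.28-fold lower in KO, adjusted p = 0.165) on its 1 probe set. The degradation genes Herpud1, which organises the retrotranslocation complex, and Edem1, which hands over misfolded glycoproteins, were at -0.03 ± 0.11 and -0.02 ± 0.14, both with overlapping groups.

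A sequence feature was also searched in the promoters of the chaperones. These genes were listed because they belong to the unfolded protein response, so a feature of that response is not independent of their choice. The ER stress response element, bound by ATF6 with NF-Y, was searched as CCAAT, any 9 bases and CCACG in the same 250 bases on both strands. It was found for 6 of 9 chaperones (Hspa5, Hsp90b1, Calr, Canx, Pdia6 and Dnajc3) and for none of the 24 other members with a promoter, while 0.113% of all windows held it. The XBP1-type element TGACGTGG was found for 0 of 33 members, against 0.563% of all windows, which says only that these letters are not in these windows. Its reverse strand can overlap the end of the longer element, but no such pair was present. The 6 chaperones with the element had differences of -0.14 to 0.05 on their representative probe sets. Of the 3 without it in this window, Pdia4 was at 0.12, Sdf2l1 at -0.14 and Dnajb9 at -0.36, and no relation of the element to the difference was tested. The element is in capitals for Hspa5 (chr2:34772000-34772079, plus strand, beginning 65 bases before the start), Pdia6 (chr12:17266466-17266545, plus strand, 98 bases), Dnajc3 (chr14:118937802-118937881, plus strand, 105 bases) and Canx (chr11:50325764-50325843, minus strand, 145 bases), all shown in the gene's direction.
Hspa5: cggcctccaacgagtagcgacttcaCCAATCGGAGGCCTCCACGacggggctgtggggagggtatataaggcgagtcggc
Pdia6: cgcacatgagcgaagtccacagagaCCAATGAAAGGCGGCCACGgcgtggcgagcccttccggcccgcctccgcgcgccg
Dnajc3: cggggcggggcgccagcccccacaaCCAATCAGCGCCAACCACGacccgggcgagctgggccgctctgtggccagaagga
Canx: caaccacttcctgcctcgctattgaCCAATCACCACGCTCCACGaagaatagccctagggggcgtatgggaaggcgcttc

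The members had 95 probe sets in all that named them alone, and 0 of these were called, against 0.355% of all probe sets. Of the 60 beyond the representative ones, 42 had the same sign as the representative. For 19 of the 30 members with more than 1 probe set, every other probe set had the same sign, and for 11 at least 1 had the opposite sign, among them Eif2ak1, Ern1 and Vldlr. A further 2 probe sets named Phgdh together with another gene and were not used.

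Of 125 measured genes of the same pathways that are not members, 0 were called by limma, with 14 higher and 6 lower in KO at an unadjusted p under 0.05, and a median difference of 0.04. This is 16% of them, below the 21.0% of all genes. By sign 72 were higher and 53 lower. Among 27 other ATF4-linked genes 2 higher and 3 lower had an unadjusted p under 0.05 (18.5%). Bbc3 (PUMA), a proapoptotic BCL2 relative that CHOP and p53 induce, had 6.01, 6.17 and 5.78 in KO, against 6.84, 7.26 and 6.47 in WT (-0.87 ± 0.22, adjusted p = 0.123), with no overlap. Psph, the last enzyme of serine synthesis, had 8.63, 8.78 and 8.63 in KO, against 8.13, 8.39 and 8.40 in WT (0.37 ± 0.12, adjusted p = 0.173), the same sign as Psat1.

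Eif2b1 gave the smallest p-value of these lists. It encodes a subunit of the exchange factor eIF2B, which phosphorylated eIF2 inhibits, and had 8.83, 8.75 and 8.88 in KO, against 8.11, 8.45 and 8.30 in WT, with all KO mice above the WT mice. Its difference was 0.53 ± 0.12 (adjusted p = 0.108). Eif2b5, the catalytic subunit, had 9.49, 9.59 and 9.58 in KO, against 9.14, 9.41 and 9.18 in WT (0.31 ± 0.11, adjusted p = 0.21). Of 8 measured eIF2 and eIF2B genes 2 had an unadjusted p under 0.05 (25%, against 21.0% of all genes), both higher, and the median was 0.18. The largest difference of this list was that of Eif2b2, named after its value was seen, at 0.88 ± 0.60 (adjusted p = 0.455). It rests on KO 551, at 13.63, against 11.19 to 11.36 on the other arrays. Of 19 tRNA synthetases 3 had an unadjusted p under 0.05 (15.8%), all higher, with a median of 0.04. Farsa, the alpha subunit for phenylalanine, was at 0.38 ± 0.10 (adjusted p = 0.132) and Rars, for arginine, at 0.36 ± 0.14 (adjusted p = 0.22).

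The further genes of the endoplasmic reticulum had medians of 0.05 for 23 folding genes (2 higher and 1 lower at an unadjusted p under 0.05), 0.09 for 22 degradation genes (2 higher and 1 lower) and 0.02 for 26 translocation and sensing genes (3 higher and 1 lower). The shares at an unadjusted p under 0.05 were 13.0%, 13.6% and 15.4%, against 21.0% of all genes. Ero1a, the oxidase that recharges disulfide isomerases, was at 0.27 ± 0.10 (adjusted p = 0.218) and the isomerase Pdia5 at -0.39 ± 0.13 (adjusted p = 0.177). Sel1l, the scaffold of the HRD1 ubiquitin ligase, had 10.39, 10.66 and 10.45 in KO, against 10.15, 9.89 and 10.15 in WT (0.44 ± 0.13, adjusted p = 0.155), while the lectin Erlec1 was at -0.32 ± 0.11 (adjusted p = 0.198). Sec61a1, the pore of the translocon, was at 0.36 ± 0.12 (adjusted p = 0.173), and Map3k5 (ASK1), a kinase that IRE1 can activate, at -0.66 ± 0.17 (adjusted p = 0.129). Over the whole lists, all KO mice lay above all WT mice for 4 of the 23 folding, 5 of the 22 degradation and 4 of the 26 translocation and sensing genes, against 12.5% of all genes. They lay below for 2, 3 and 4 of them, against 16.2%.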

How the data were processed

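The authors deposited intensities per probe set on a linear scale, summarised by RMA, a robust multi-array average, according to the submitters' processing notes; software and version are not given in the sources used here. RMA brings all arrays to a common distribution, and a change shared by most genes would be reduced by it. Of 45101 probe sets 64 were controls and were left out. The deposited intensity values were taken to log2 and used as they stood, without a pseudocount. Medians per array were 5.62 to 5.68 in KO and 5.73 to 5.78 in WT (log2).

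Gene names came from GEO's platform annotation, under which 34945 tested probe sets named 1 gene. List genes under another symbol were matched by gene identifier to RefSeq (GRCm38.p6), and 125 of 133 other pathway genes were measured. KO was compared with WT in R 4.3.3 by limma 3.58.1, with lmFit and eBayes and genotype as the sole term. P-values were adjusted by Benjamini-Hochberg over 45037 probe sets and called under 0.05. Standard errors are limma's moderated ones. The number of arrays limits precision, and an exact permutation test of 3 mice against 3 cannot give a two-sided p below 0.1. The fit was tested on simulated data. The labels repeat the title numbers as a microRNA construct; they were read as mouse numbers, which no label states.

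The members and lists were chosen with earlier results of these data known. Values in every mouse are given for members with an unadjusted p under 0.05 and for Eif2ak1, Atf4, Ddit3, Xbp1 and Hspa5, and of each other pathway list the 2 genes with the smallest p are named. Values per mouse of further members were added after they were seen.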

Additional observations from a re-analysis of the deposited data

How the results depend on the processing

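No member was called under any of the 10 planned settings with all arrays or without any 1 mouse, although the trend with a robust prior called 804 genes in all and the ordinary equal-variance test 7. Without 1 mouse, an unadjusted p under 0.05 was found for 2 to 8 members, against 15.3% to 21.3% of all genes. The median over all 35 members was then -0.12 to -0.08. Over the settings with all arrays this median was -0.14 to -0.09. Quantile and cyclic loess normalization moved the median of all genes by at most 0.05. Of the other pathway genes 4 were called with the trend (Farsa, adjusted p = 0.0483, Sec61a1, 0.0412, Map3k5, 0.0439, and Rnf139, -0.20, 0.0365, the last named after its value was seen) and 2 with the filter on dim probe sets (Farsa, 0.0493, and Eif2b1, 0.0457). With probe sets averaged Farsa was at 0.13 (adjusted p = 0.791). The cause was not tested. No paired analysis was possible because no title number occurs in both groups.

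Some members changed sign. With probe sets averaged, differences were -0.16 for Eif2ak1, -0.13 for Eif2ak3, -0.0283 for Eif2ak4, -0.0208 for Ern1 and 0.0899 for Pdia6. Without _x_at and _s_at probe sets they were 0.0400 for Vldlr and -0.13 for Canx. A block of low against high title numbers gave -0.0750 for Eif2ak4 and 0.00500 for Hsp90b1, and quantile normalization 0.0289 for Edem1. Leaving out 1 mouse gave ranges of -0.12 to 0.73 for Eif2ak1, -0.11 to 0.17 for Eif2ak4, -0.20 to 0.0100 for Eif4ebp1, -0.42 to 0.0167 for Phgdh, -0.51 to 0.0283 for Shmt2, -0.100 to 0.0200 for Hsp90b1, -0.0250 to 0.0850 for Dnajc3, -0.0817 to 0.0483 for Herpud1 and -0.10 to 0.0800 for Edem1. In all of these fits the adjusted p stayed above 0.05, and the other member differences kept their sign at 2 decimals. The filter on dim probe sets kept 31 members. Signal over background could not be read from the deposited values, which hold no detection calls.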
